A study of Mus musculus with 5 samples.

Results

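Tdgf1 encodes Cripto, and the values below describe every adenosine call that direct RNA sequencing placed on the exons of Tdgf1 in mouse embryonic stem cells (mESCs). The gene (ENSMUSG00000032494.12) lies on the minus strand of chromosome 9, and its main transcript Tdgf1-201 runs from 110939603 to 110946158 in mm10. Of 512355 positions in the deposited files, 376 lay on exons of Tdgf1, out of 508130 on the exons of 2747 genes. Of these 376 positions, 370 were covered in all 5 libraries. Tdgf1 was chosen for its pattern in these data, namely sites that responded to STM2457, an inhibitor of the m6A writer METTL3, beside 1 site outside the DRACH motif of that writer that differed between WT and Mettl5-KO clones. The levels behind these contrasts are therefore given as a description, with no test.

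Cripto is a small protein of the EGF-CFC family that is attached to the cell surface by a GPI anchor. It acts as a co-receptor that lets Nodal and Gdf3 signal through activin receptors, and its mRNA is abundant in pluripotent cells. In mRNA, N6-methyladenosine (m6A) is written largely by METTL3 with METTL14 at DRACH motifs, in which D is A, G or T, R is A or G, and H is A, C or T. METTL5 is a different methyltransferase, known for methylating an adenosine of 18S ribosomal RNA.

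The METTL3 inhibition dataset held 1 library each of mESCs given 0.025% DMSO, the solvent, or 30 µM STM2457 for 48 h. These were E14 cells labelled WT that carried the reporters 2C::3xtbGFP-PEST and Zscan4::mCherry-PEST, an inducible construct Dox::APOBEC1-YTH-HA-IRES-tdiRFP that was not induced, and on both alleles a tag, FKBP12 with the mutation F36V, fused to METTL3 and not used for degradation. The Mettl5 dataset held 1 library each of untreated WT mESCs and of Mettl5-KO clone #1 and Mettl5-KO clone #2, so the knockout group was 2 clones with 1 library each and the control was 1 library. The strain of the Mettl5 lines is not given in the sources used here, and cells of all 5 libraries were grown in serum and LIF on gelatin, with 2i (inhibitors of MEK and GSK3) added to the medium for maintenance.

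The methylation level of a position is its m6A calls as a percent of its valid calls, and a valid call is one that passed the confidence filter of the caller. Total valid calls per library ran from 17897440 to 71574467, with a library median of 45 to 64 valid calls per position. Tdgf1 was deeper than that, with median valid calls of 194 in DMSO, 127 in STM2457, 152 in WT, 122 in clone #1 and 155 in clone #2. Of 14 marker genes of embryonic stem cells, 11 were covered in the METTL3 inhibition dataset and 8 in the Mettl5 dataset, while 0 of 21 markers of endoderm, mesoderm, ectoderm, trophoblast and feeder fibroblasts were covered in either. Neither Mettl5 nor Mettl3 had a covered position, so the loss of the targeted gene could not be checked here. Intervals given below are exact binomial 95% intervals for a single library, and they cover counting error only.

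All 376 positions of Tdgf1 lay in exon 6, the last exon, from 110939603 to 110940819. This exon is 1217 nt long and holds the end of the coding sequence, the stop codon at 110940704 to 110940706 and a 3′ UTR of 1101 nt. Exons 1 to 5 of Tdgf1-201 contain 147 adenosines, and 0 of them had a covered position in either dataset. Within exon 6, 11 of 384 reference adenosines had no row, 4 of them at the very 3′ end, and 3 of the 376 positions had a reference base other than A. Over part of the coding sequence the transcript has close copies in the genome. The pseudogene Tdgf1-ps1 matched it over 512 nt at 98.8% identity, Gm13455 over 438 nt at 91.1% and Tdgf1-ps2 over 509 nt at 90.4%. None of these copies reached into the 3′ UTR, which held 18 of the 19 sites described next. Only annotated GENCODE M21 transcripts were searched for long matches, so unannotated copies and short repeats of the 3′ UTR were not assessed. The remaining site, in the coding sequence, lay inside the copied stretch and its assignment to Tdgf1 is uncertain.

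A position was counted as a site where any library reached 10%, and Tdgf1 had 19 of them against 357 positions that stayed below 10% in each library with coverage. Sites are named by their distance in nt after the stop codon, so that +876 lies 876 nt into the 3′ UTR. Just inside the threshold were +1004 and +773, whose highest levels were 10.1% in clone #2 and 10.5% in clone #1. Just outside it were the positions 110939622, 110939939 and 110940306, whose highest levels were 9.92%, 9.40% and 9.35%, each in WT. Of the 19 sites, 9 passed 10% in both datasets, 3 in the METTL3 inhibition dataset only and 7 in the Mettl5 dataset only.

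The sequences of 6 sites are shown, because 4 of them are the only DRACH sites of 10% or more and the other two are the sites outside DRACH that differed most between libraries. They are read 5′ to 3′ along the mRNA from the GENCODE M21 transcripts, with T for U. The coordinate is that of the called adenosine on the minus strand in mm10, and capitals mark the 5 bases centred on it.
Tdgf1 +688 (chr9:110940016): tggggaagTGACTaagactgg
Tdgf1 +694 (chr9:110940010): agtgactaAGACTggggaaac
Tdgf1 +820 (chr9:110939884): ctacaacaGGACTactaaaag
Tdgf1 +876 (chr9:110939828): gccaacaaAGACTgaatggca
Tdgf1 +856 (chr9:110939848): ggctatgtACAGAgtaccagg
Tdgf1 +433 (chr9:110940271): aggcctacACAGAaaccctgt
The 4 DRACH sites all ended in GACT and lay in the distal part of the 3′ UTR, and the windows of +688 and +694 overlapped since the sites are 6 nt apart. Sites +856 and +433 had the same 5 bases, ACAGA, which is not a DRACH motif because the base after the A is not C. Site +856 lay 20 nt upstream of +876.

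The site at +876 was the most methylated adenosine of Tdgf1. Its level was 83.3% in DMSO (184 of 221 valid calls), 25.2% in STM2457 (37 of 147), 79.1% in WT (136 of 172), 85.6% in clone #1 (119 of 139) and 84.8% in clone #2 (140 of 165). The 4 libraries without inhibitor lay between 79.1% and 85.6% with overlapping intervals, while STM2457 stood far below them, with an interval of 18.4% to 33.0%. At +820 the level was 67.9% in DMSO (144 of 212), 11.3% in STM2457 (16 of 142), 45.0% in WT (72 of 160), 52.5% in clone #1 (73 of 139) and 62.0% in clone #2 (106 of 171). STM2457 was again the lowest library, and the 4 others were spread more widely than at +876, from WT at the low end to DMSO at the high end.

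The other two DRACH sites were methylated on a small share of reads. At +688 the level was 18.3% in DMSO, 3.47% in STM2457, 9.04% in WT, 13.9% in clone #1 and 15.9% in clone #2. At +694 it was 10.9%, 2.78%, 8.98%, 10.1% and 12.4% in the same order. STM2457 was the lowest library at all 4 DRACH sites. Failed calls, which do not enter the level, were few here, at most 5.88% of the calls at any of the 4 sites in any library.

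**Figure D1:**
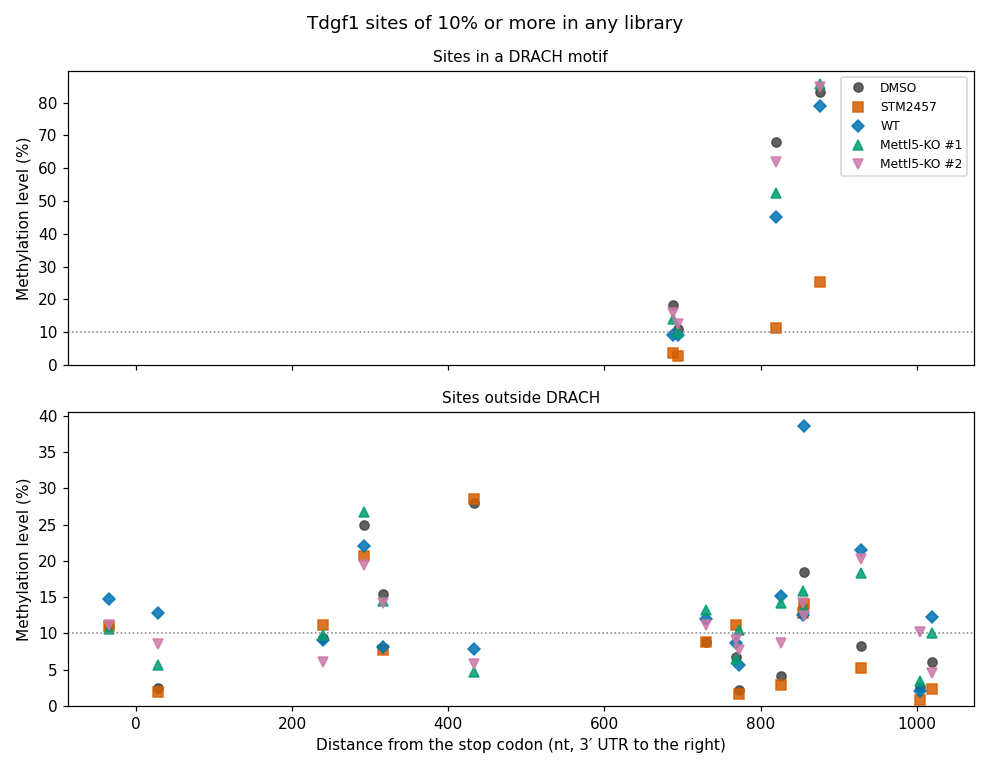
Methylation level (%) of the 19 Tdgf1 sites in each of the 5 libraries against the distance from the stop codon in nt, with DRACH sites in the upper panel and the others in the lower panel, which has its own vertical scale. Each point is 1 library and the dotted line marks 10%. The 4 DRACH sites lie between +688 and +876 with STM2457 lowest at each, and in the lower panel the WT point at +856 (38.7%) stands above every other point.

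The high levels were limited to these few adenosines. Tdgf1 had 29 covered DRACH positions, of which 4 reached 10%, 1 lay between 5% and 10% with a highest level of 5.56%, and 24 stayed under 5% in every library that covered them. In the 3′ UTR in DMSO, 4 of 26 DRACH positions of Tdgf1 (15.4%) were at 10% or more, against 30.3% of 21212 over all genes. Outside DRACH the share in DMSO was 1.73% of 347 positions on Tdgf1 and 1.11% of 427971 over all genes. Ordered by their mean over the 4 libraries without STM2457, the sites began with +876 at 83.2% ± 2.92 (SD, n = 4 libraries, which are not replicates of 1 condition), +820 at 56.9% ± 10.1, +292 at 23.3% ± 3.22 and +856 at 20.7% ± 12.2. The range of +876 did not overlap that of +820, nor that of +820 the range of +292, and from +292 on every site overlapped the next in order.

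With STM2457, methylation of Tdgf1 was lower at its DRACH sites by amounts close to those of other genes, and at 5 of 6 sites outside DRACH the level was lower by less than 50% or not lower. The mean level of the 4 DRACH sites was 45.1% in DMSO and 10.7% in STM2457. Their relative decrease, which is the difference as a percent of the DMSO level, was 69.8% at +876, 74.4% at +694, 81.1% at +688 and 83.4% at +820. The mean of these was 77.2%, beside a mean of 81.0% and a median of 84.0% over 9370 DRACH sites of 10% or more in DMSO on all genes. A decrease of at least 50% was seen at 4 of 4 DRACH sites of Tdgf1, with a share of 94.7% over all genes. Since Tdgf1 was chosen by this contrast, nothing is read from these counts.

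Of the 6 sites outside DRACH that were at 10% or more in DMSO, 1 was lower by at least 50%, against a share of 49.0% of 4741 such sites over all genes. The 1 was +316 in the context GTAAA, at 15.4% in DMSO (24 of 156) and 7.69% in STM2457 (8 of 104), a decrease of 50% that sat on the threshold, with overlapping intervals of 10.1% to 22.0% and 3.38% to 14.6%. The other 5 differed less between the libraries. At +433 it was 28.0% and 28.6%, at +854 13.6% and 12.8%, at the coding site 110940740 11.02% and 10.98%, at +292 25% and 20.7%, and at +856 18.5% and 13.99%. The relative decrease was 17.1% at +292 and 24.3% at +856. The intervals of the libraries overlapped at each of these 5 sites. Over the 6 sites the mean was 18.6% in DMSO and 15.8% in STM2457, and the mean relative decrease was 15.99% ± 19.4 (SD over 6 sites), beside 42.6% outside DRACH over all genes. Over all 10 sites and both classes, 5 were lower by at least 50%, beside 79.3% of 14111 sites over all genes.

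The calls outside DRACH also differed in how often the caller was unsure. Of the 15 sites outside DRACH, 14 had failed calls of 10% or more in every library, and +856 was the exception, with failed calls from 2.08% to 5.80%. At +929 (context GCAAA), failed calls took 45.3% to 54.5% of all calls, so its levels rest on a part of the reads. Levels there were 8.26% in DMSO, 5.26% in STM2457, 21.5% in WT, 18.3% in clone #1 and 20.3% in clone #2. Both libraries of the METTL3 inhibition dataset were lower than the 3 of the Mettl5 dataset. At +292 (TTAAA), with failed calls from 36.8% to 45.8%, the level was 25% in DMSO, 20.7% in STM2457, 22.1% in WT, 26.8% in clone #1 and 19.4% in clone #2, and all intervals overlapped.

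The site at +856 was chosen for its difference between WT and the Mettl5-KO clones. Its level was 18.5% in DMSO (39 of 211 valid calls, interval 13.5% to 24.4%), 13.99% in STM2457 (20 of 143, 8.76% to 20.8%), 38.7% in WT (63 of 163, 31.1% to 46.6%), 13.5% in clone #1 (19 of 141, 8.31% to 20.2%) and 12.4% in clone #2 (21 of 170, 7.81% to 18.3%). WT was the only high library, and its interval did not overlap that of any other. The mean of the clones was 12.9% ± 0.794 (SD, n = 2 clones), 25.7 percentage points below WT, which is a log2 ratio of -1.52 for clone #1 and -1.65 for clone #2 over WT. The DMSO library, from a line with no change of Mettl5 among its listed modifications, was at 18.5%, nearer to the clones than to the WT library. Over the 9095 sites of 10% or more in the Mettl5 dataset, 3.93% had a log2 ratio of -1.5 or less in both clones. On Tdgf1 it was 1 of 16, the site chosen. Over all genes it was 320 of 5955 sites outside DRACH and 37 of 3140 in DRACH. The sites outside DRACH had a mean WT level of 10.5%, below the 38.7% of +856, and sites of like level were not compared. The WT value rests on 1 library, so a difference of the genotype cannot be told apart from one of that library.

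The bases around +856 did not share its pattern. The nearest adenosine upstream, at +854 and 2 nt away (GTACA), was at 13.6% in DMSO, 12.8% in STM2457, 12.6% in WT, 15.8% in clone #1 and 14.2% in clone #2. Its 5 libraries lay within a narrow range. The adenosine 2 nt downstream of +856, at +858 (AGAGT), had 0 m6A calls in all 5 libraries on 142 to 220 valid calls. An approximate upper bound of 3 calls in 142, used here in place of the exact interval, is 2.11%.

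Of 5 covered ACAGA positions on Tdgf1, +856 and +433 reached 10%, while the other 3 were at 3.33% or less in every library. Over all genes, 0.712% of 2948 ACAGA positions were at 10% or more in DMSO and 0.948% of 1266 in WT. Of the 19 ACAGA positions that reached 10% in the Mettl5 dataset, 1 had WT at least 20 points above both clones, and this was +856. The median of WT minus the clone mean over the 19 was 5.94 points, beside -0.798 points at sites outside DRACH over all genes. A position entered the 19 where WT or a clone reached 10%, and +856 was chosen for this difference. Nothing about the ACAGA context is therefore read from the median. Site +433 moved between datasets instead. Its level was 28.0% in DMSO (30 of 107), 28.6% in STM2457 (20 of 70), 7.86% in WT (11 of 140), 4.72% in clone #1 (5 of 106) and 5.84% in clone #2 (8 of 137). The libraries fell into the datasets, with no overlap between them, and failed calls moved the same way, at 50.2% and 50% of calls in DMSO and STM2457 against 17.2%, 21.5% and 23.5% in WT and the clones.

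**Figure D2:**
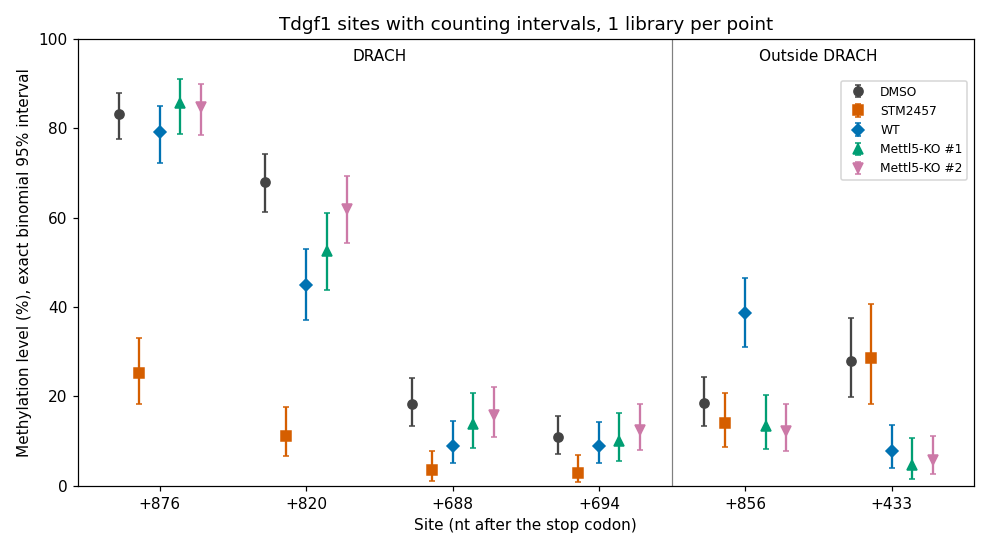
Methylation level (%) of 6 Tdgf1 sites in the 5 libraries, with 1 library per point and exact binomial 95% intervals as bars, for the 4 DRACH sites on the left and the 2 sites outside DRACH on the right. STM2457 is lowest at each DRACH site, WT (38.7%) is apart from the others at +856, and DMSO (28.0%) and STM2457 (28.6%) lie above the 3 libraries of the Mettl5 dataset at +433.

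With +856 included, the mean level of Tdgf1 sites hardly differed between WT and the clones, and without it WT was the lowest. Over the 16 sites of the Mettl5 dataset WT had a mean of 19.99%, against 19.9% for clone #1 and 19.9% for clone #2. Without +856 it was 18.7%, 20.3% and 20.4% over 15 sites. The 4 DRACH sites went the other way from +856, with WT below both clones at 4 of 4 and means of 35.5% for WT, 40.5% for clone #1 and 43.8% for clone #2. Over all genes WT was below both clones at 1392 of 3140 DRACH sites and above both at 746. The largest of these differences was at +820, where WT was 12.3 points below the mean of the clones and the interval of WT (37.1% to 53.1%) did not overlap that of clone #2 (54.3% to 69.3%) but overlapped that of clone #1 (43.9% to 61.0%). The DRACH sites of all genes had a WT mean of 29.6%, with 31.7% for clone #1 and 31.8% for clone #2. At the 12 sites outside DRACH, WT was above both clones at 6 and below both at 4, beside 1959 and 1922 of 5955 over all genes.

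The clones were also compared with each other on Tdgf1. Of the 15 sites tested, 0 differed at an adjusted p below 0.05 by Fisher's exact test and 0 at an unadjusted p below 0.05. The share called was 0.0387% of 7742 sites over all genes. The 15 include +856, although its clone levels were used in its choice, and +1004, which reached 10% only in clone #2. With so few sites called anywhere, nothing about Tdgf1 is read from this count. No other tool was run. The largest difference among the DRACH sites was at +820, 52.5% in clone #1 and 62.0% in clone #2, with an adjusted p of 0.787 by Fisher's exact test. The Pearson correlation of levels across the 19 sites was 0.979 between the clones, 0.928 between WT and clone #1, 0.907 between WT and clone #2, 0.875 between DMSO and WT and 0.930 between DMSO and clone #1. These values are across sites that share a library and are dominated by the 2 high DRACH sites.

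DMSO and WT are 2 libraries without inhibitor whose genotype is labelled WT, from different datasets in which cell line, batch and run differ together, so the source of a difference cannot be told apart. Tdgf1 had 15 sites of 10% or more in either, of which 5 had an adjusted p below 0.05 by Fisher's exact test, beside 13.0% of 5376 sites over all genes. DMSO was higher at 2 of them (4.37% of sites over all genes) and WT at 3 (8.63% over all genes). Nothing is read from these counts, since the DMSO levels of the DRACH sites and the WT level of +856 were used in their choice, and other sites reached 10% only in the library in which they were high. The levels are therefore set side by side, with no p.

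At +820 DMSO was at 67.9% (interval 61.2% to 74.2%) and WT at 45.0% (37.1% to 53.1%), while at +876, the most methylated site, they were at 83.3% (77.7% to 87.9%) and 79.1% (72.2% to 84.9%). The intervals did not overlap at +820 and overlapped at +876. At +688 the levels were 18.3% and 9.04% with overlapping intervals. Outside DRACH, +28 in the context CCATA, just after the stop codon, was at 2.47% in DMSO (0.677% to 6.20%) and 12.8% in WT (7.36% to 20.3%). At +826 (CTAAA) the levels were 4.12% (1.67% to 8.30%) and 15.2% (9.10% to 23.2%). WT was the higher library at both.

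The failed calls moved several of these levels. With failed calls kept in the denominator, +433 went from 28.0% and 7.86% in DMSO and WT to 13.95% and 6.51%. At +28 the levels became 1.99% and 9.55%, so that the site no longer reached 10%, and at +826 they became 3.18% and 10.3%. Site +820, with few failed calls, was at 64.6% and 42.4%.

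**Figure D3:**
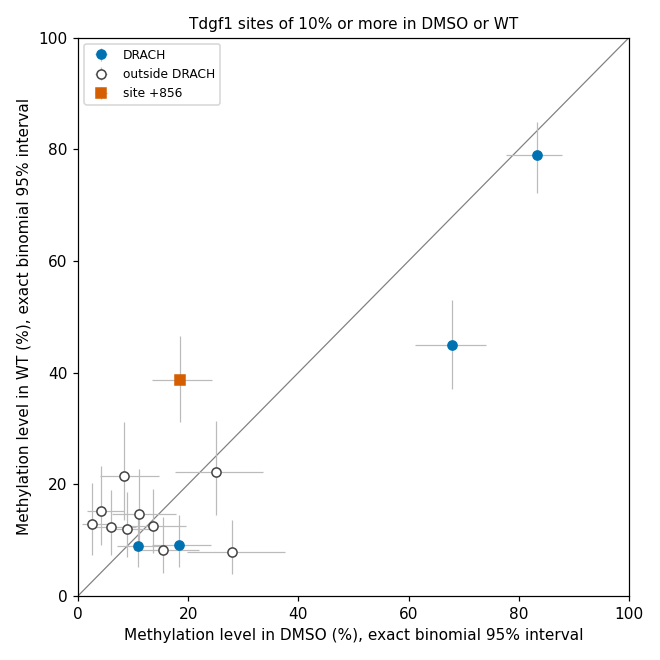
Methylation level (%) in WT against that in DMSO for the 15 Tdgf1 sites of 10% or more in either library, where each point is a site, bars are exact binomial 95% intervals and the line marks equal levels. Filled circles are DRACH sites, open circles are outside DRACH and the square is +856 (18.5% in DMSO and 38.7% in WT). Site +820 (67.9% and 45.0%) and +433 (28.0% and 7.86%) lie farthest below the line.

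The remaining sites were lower and varied within their counting intervals or between datasets. The coding site 110940740 (CTAGC) was at 11.02% in DMSO, 10.98% in STM2457, 14.7% in WT, 10.6% in clone #1 and 11.1% in clone #2. At +730 (TTACG) the 5 levels ran from 8.80% to 13.2%, at +239 (GTAAC) from 6.03% to 11.1% and at +769 (CCAAG) from 6.50% to 11.2%. The intervals of all 5 libraries overlapped at each of these sites. At +773 (GCACA) the METTL3 inhibition dataset was at 2.17% and 1.67%, and WT and the clones were at 5.67%, 10.5% and 7.75%. At +1020 (TTATA) the 5 levels ran from 2.38% to 12.3%, and at +1004 (GTAGT) from 0.758% to 10.1%. The highest value at +1004 came from clone #2, on 69 valid calls, in a stretch where that library had lost depth.

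Reads over exon 6 fell off at the 3′ end in every library, and most in clone #2. In direct RNA sequencing a read begins at the poly(A) tail, so depth is normally highest at the 3′ end of a transcript. The share of reads left at the most 3′ covered position, relative to the highest depth within 500 nt, was 75.7% in DMSO (171 of 226), 85.4% in STM2457 (129 of 151), 86.2% in WT (150 of 174), 73.1% in clone #1 (106 of 145) and 17.2% in clone #2 (32 of 186). Clone #2 was the single low library, with an interval of 12.1% to 23.4%. The same share was lower in clone #2 for other genes too, with a median over 326 genes of 60.7% in clone #2, 92.5% in clone #1 and 98.6% to 99.2% in the other 3. In each library 5.83% to 9.82% of these genes had a lower share than Tdgf1. A position needed at least 25 valid calls to be covered, so a gene of low depth cannot show a low share. The medians and the rank of Tdgf1 depend on this floor, and genes of like depth were not compared. Tdgf1 was 55.9 points lower in clone #2 than in clone #1, and 20.9% of the genes had a larger drop. At +856 clone #2 had 178 reads, close to its maximum of 186, while at +1020 it had 44 valid calls against 99 in clone #1.

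**Figure D4:**
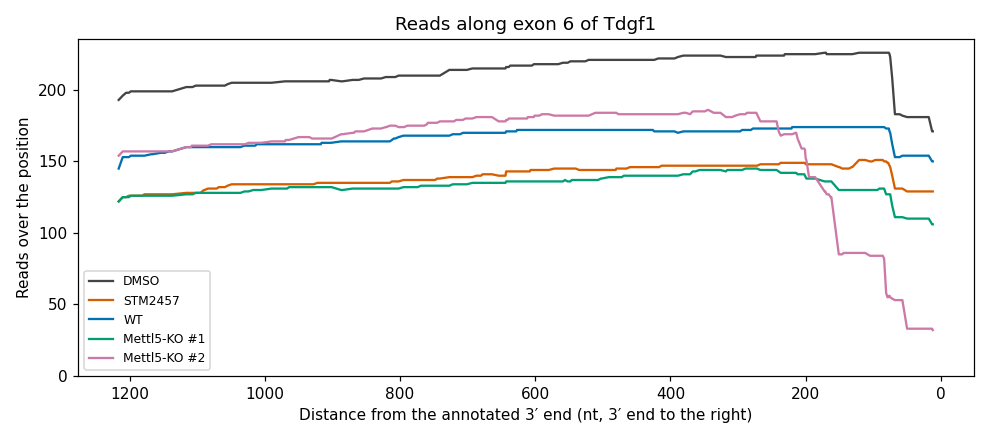
Reads over each covered position of Tdgf1 exon 6 in the 5 libraries against the distance from the annotated 3′ end in nt, with the 3′ end to the right. Clone #2 falls to 32 reads at the most 3′ position from a maximum of 186, while the other 4 libraries keep 106 to 171 reads there.

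The depth of Tdgf1, a measure of its amount of RNA, stayed within the range of most genes. The mean of valid calls per position was 190.4 in DMSO and 125.3 in STM2457, and scaled to the total valid calls of each library this was a log2 ratio of -0.20 for STM2457 over DMSO. The median over 2514 genes was 0.11, with a 5th percentile of -0.59 and a 95th of 0.91, and 23.9% of genes were below Tdgf1. Mean valid calls were 148.9 in WT, 118.8 in clone #1 and 140.9 in clone #2, and the scaled log2 ratio over WT was -0.03 for clone #1 and 0.09 for clone #2, with 34.4% and 44.5% of 967 genes lower. With 1 library for DMSO, STM2457 and WT there is no error on these ratios, and in bulk RNA fewer cells with the transcript and less RNA per cell cannot be told apart.

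Other genes of the Nodal pathway were covered only in part. Of 32 listed genes, 7 had covered positions in the METTL3 inhibition dataset and 5 in the Mettl5 dataset, and the receptors Acvr1b, Acvr2a and Acvr2b and the effectors Smad2, Smad3 and Smad4 had none. On the 7 genes, 55 of 89 sites were lower in STM2457 and 0 were higher at an adjusted p below 0.05 by Fisher's exact test, beside 52.3% lower, 0.632% higher and 52.9% in either direction over all genes. The median difference was -15.6 points on the list and -14.3 points over all genes. For each gene with a called site, the site with the highest DMSO level is quoted below. A site picked this way is more likely to be lower in STM2457, so its p-value overstates the evidence for a difference. Nodal, the ligand that Cripto presents to its receptors, had 14 of 20 sites lower, and its strongest site in DMSO, in the 3′ UTR at 61424892 on chromosome 10, was at 100% in DMSO and 84.4% in STM2457 (adjusted p of 0.0034 by Fisher's exact test). Gdf3, a related ligand, had 7 of 10 sites lower, with 97.3% and 63.0% at its highest site (adjusted p of 2.4e-09 by Fisher's exact test). Among nuclear factors, the co-repressor Tgif1 had 17 of 21 sites lower, with 97.1% and 54.4% at its highest (adjusted p of 6.2e-17 by Fisher's exact test), and Foxh1, which binds DNA with Smad proteins, had 1 of 9, at 29.6% and 3.45% (adjusted p of 0.000526 by Fisher's exact test). Hspa5, the chaperone of the endoplasmic reticulum that binds Cripto, had 14 of 17 lower, with 95.3% and 71.2% at its highest (adjusted p of 9.9e-09 by Fisher's exact test). Fkbp1a, which binds the type I receptors of the family, had 2 of 8 lower, with 19.05% and 2.96% at its highest (adjusted p of 3.4e-06 by Fisher's exact test), and the repressor Drap1 had 0 of 4. In STM2457 the highest sites of Gdf3 and Tgif1 were at 63.0% and 54.4%, from 97.3% and 97.1% in DMSO. Sites +876 and +820 of Tdgf1 were at 25.2% and 11.3%, from lower DMSO levels of 83.3% and 67.9%. The mean relative decrease at the DRACH sites of Tdgf1 was 77.2%, beside 81.0% over all genes.

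Between WT and the clones, the 5 pathway genes covered there had 92 sites of 10% or more, of which 2 had a log2 ratio of -1.5 or less in both clones and 7 of 1.5 or more, beside 357 and 560 of 9095 over all genes. The highest site of Tgif1 was at 97.8% for WT, 97.0% for clone #1 and 98% for clone #2, and that of Hspa5 was at 91.7%, 99.01% and 96.9%. The highest site of Fkbp1a was at 12.9%, 1.64% and 9.68%. WT was thus above both clones at the site of Fkbp1a, below both at that of Hspa5 and between them at that of Tgif1. These sites were picked for their DMSO level, so they do not describe the other pathway sites.

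Other genes had site means much like those of Tdgf1. Its mean over the 19 sites was 18.03% in DMSO, 9.65% in STM2457, 18.2% in WT, 17.9% in clone #1 and 17.8% in clone #2. Of 610 genes with at least 4 sites covered in all 5 libraries, the closest by mean absolute difference over the 5 libraries was Ybx3 at 0.473 points, followed by Eif4a2 at 1.11, Cct6a at 1.11, Trh at 1.13 and Fscn1 at 1.17 points. Among 140393 positions outside DRACH on other genes, the one closest to +856 was 39848166 on chromosome 17 in the noncoding gene Gm42418 (context ACAAG), a locus that overlaps ribosomal RNA sequence. Its levels were 13.2% in DMSO, 6.17% in STM2457, 39.7% in WT, 14.8% in clone #1 and 14.8% in clone #2, and its WT level was also the only high one, on 3931 valid calls against 81 to 183 elsewhere. The next were a position of Poldip3 (CCAGG) with 32.3% in WT and 13.3% and 17.2% in the clones, and one of Tnpo3 (GAAAC) with 30.8%, 12.9% and 16.7%, each on 42 valid calls or fewer in every library. These positions were picked for their likeness, which is therefore no result.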

How the data were processed

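Libraries of polyadenylated RNA from 5 mESC cultures were sequenced directly on nanopores, and samples were grouped by their labels. According to the methods, the authors demultiplexed reads with WarpDemuX, called bases and modifications (m6A, inosine and 2′-O-methyladenosine) and aligned to mm10 with dorado, and summarised calls with modkit. The deposited counts are valid, m6A, failed, deleted and other calls per position and strand, not normalized. The deposited percent is m6A calls over valid calls and was recomputed from the counts. Failed calls leave the denominator, so levels at positions with many of them rest on fewer reads. Each deposited position had at least 25 valid calls in each library of its dataset. Coverage starts at the poly(A) tail, which favours last exons.

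Positions were placed on exons of all GENCODE M21 transcripts by strand, and 99.8% of exonic positions had a reference A. Levels were compared with two-sided Fisher's exact tests on m6A and other valid calls, with Benjamini-Hochberg adjustment over all exonic positions of 10% or more in either library (scipy 1.17.1 and pandas 2.3.3 in Python 3.11.15, with numpy 2.4.6). The test was also run on simulated counts that held counting error only, so that run does not cover variation between libraries. With 1 library per condition the test compares libraries, and p-values measure counting error. Named were Tdgf1 with every site of 10% or more, the 5 genes and 3 positions most like it, and covered genes of a Nodal pathway list with a called site. Members and lists were chosen with earlier results of these data known. Alternatives were a threshold of 25%, coverage of at least 50 or above 25, failed calls in the denominator, DRACH only, all positions, other scalings and each clone left out. The batch given in the labels is 1 per dataset and differs between them.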

Additional observations from a re-analysis of the deposited data

How the results depend on the processing

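No paired analysis was possible because the groups compared share fewer than 2 replicate numbers. At a threshold of 25% the sites of Tdgf1 numbered 4 in the METTL3 inhibition dataset (12 at 10%) and 4 in the Mettl5 dataset (16 at 10%). With DRACH sites only, the mean relative decrease with STM2457 was 77.2% (40.5% over all sites), and the mean of WT minus clones was -6.64 points (0.107 over all sites). Between DMSO and WT the calls over all genes by Fisher's exact test were 699 of 5376 sites tested. They were 237 of 1602 at 25%, 446 of 4046 with failed calls in the denominator and 130 of 2463 with DRACH only. On Tdgf1 they were 5 of 15, 3 of 5, 3 of 12 and 1 of 4 in the same order. With at least 50 valid calls they were 7 of 15 on Tdgf1 and 610 of 2495 over all genes. Nothing is read from the counts on Tdgf1, since levels of its sites were used in their choice. Between the clones the calls over all genes were 3 of 7742, and 1 of 1878, 0 of 5692 and 1 of 2971 with 25%, failed calls and DRACH only. These settings also test fewer sites. Leaving out a clone gave 25.2 to 26.3 points for WT minus clone at +856, 0.0794 to 0.135 points for the mean over sites and -0.03 to 0.09 for the log2 depth ratio. The mean of WT minus clones over sites was -0.218 points with at least 50 valid calls, -0.0714 with failed calls in the denominator and 1.58 at a threshold of 25%, against a 95% counting interval of -1.77 to 1.99 for the main value of 0.107. No Tdgf1 site called between DMSO and WT changed direction under these alternatives. The mean of WT minus clones did change sign in 3 settings. Its values of -0.218 and -0.0714 lay inside the counting interval of the main value, and -6.64 with DRACH only lay outside it. Depth limits the levels of single sites, and the lack of a second WT, DMSO or STM2457 library limits every contrast.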

Other observations

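The caller also assigned other modifications of adenosine on Tdgf1. Such calls reached 10% of valid calls in at least 1 library at 6 positions. At 110939708 (TTATT) they made up 20.7% in DMSO, 23.2% in STM2457, 15.7% in WT, 9.68% in clone #1 and 9.68% in clone #2. At 110940415, also in TTATT, they were 4.79%, 1.23%, 13.1%, 14.1% and 13.04% in the same order, lower in the METTL3 inhibition dataset than in the Mettl5 dataset. Over the covered positions of Tdgf1, all in exon 6, these calls were also counted per 1000 valid calls. They numbered 4.13 in DMSO, 3.61 in STM2457, 6.08 in WT, 5.64 in clone #1 and 4.604 in clone #2. Over all genes the values were 4.55, 4.18, 6.87, 5.87 and 6.08 per 1000 in the same order.

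Deletions in the reads were frequent at 3 positions of the exon. At 110940251 they took 60.0% of reads in DMSO, 60.0% in STM2457, 62.9% in WT, 56.3% in clone #1 and 25.3% in clone #2, where the interval of 19.1% to 32.3% did not overlap those of the other libraries. At the neighbouring 110940252 they took 61.4%, 62.1%, 65.9%, 57.8% and 29.2% in the same order, and clone #2 was again the low library. At 110940570 the 5 libraries ran from 18.7% to 30.5%. These values were read after the data were seen and were not tested.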
